A study of Mus musculus with 2 samples.

Results

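miR-191 and miR-425 are 2 microRNAs (miRNAs) cut from neighbouring hairpins on the plus strand of mouse chromosome 9, in the Dalrd3 locus. They were read here in 2 microRNA sequencing libraries of forebrain from B6NCrl mouse embryos at embryonic day 12.5. Replicate 1 was a pool of 120 embryos and replicate 2 a pool of 68 embryos, each of both sexes and healthy, and RNA below 30 nt was sequenced. Both pools carried the same strain, tissue and age, there was no treated or mutant group, and the labels name 1 common donor record. Of the 1973 miRNA genes in the deposited tables, 2 rows were taken by Ensembl identifier. Mir425 (ENSMUSG00000065579) was read on its own strand. Mir191 had no row of its own, so its reads were taken from the opposite-strand column of Gm24083 (ENSMUSG00000092915), an annotated miRNA gene that covers Mir191 on the other strand. The rows were set by position and strand, not by the level of reads, but the pair was chosen with earlier results of these data known.

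A miRNA is released from a hairpin in a longer primary transcript, first by the nuclear enzyme DROSHA and then by DICER, and 1 or both arms of the hairpin are loaded into an Argonaute protein. Bases 2 to 8 of the mature miRNA, the seed, pair with target messenger RNAs and lower their output. miR-191 and miR-425 are found in many tissues, and miR-191 has often been used as a reference in miRNA assays. Dalrd3 encodes a tRNA-binding protein that takes part in methylation of arginine tRNAs.

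The mature sequences are shown because they set which messenger RNAs each miRNA can pair with. They come from RefSeq, build GRCm38.p6, and are written 5′ to 3′ with the seed in capitals.
miR-191-5p: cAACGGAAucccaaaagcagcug
miR-191-3p: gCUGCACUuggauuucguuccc
miR-425-5p: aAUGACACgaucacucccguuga
miR-425-3p: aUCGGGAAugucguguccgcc
miR-489-3p: aAUGACACcacauauauggcagc

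The 4 arms of the pair carry 4 different seeds, so miR-191 and miR-425 do not form a seed family although they lie side by side. Among 1738 mature miRNAs in the RefSeq table, no other had the seed of miR-191-5p, miR-191-3p or miR-425-3p. One other, miR-489-3p, had the AUGACAC seed of miR-425-5p. A seed held by a single gene was the usual case, at 84.5% of 1398 seeds. Mir489, the gene of that arm, had 2 and 5 reads in replicates 1 and 2, against 12214 and 11690 reads of Mir425. Nearly all reads that could be assigned to genes with this seed were therefore reads of Mir425.

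The hairpins are shown because the gene counts cover the whole hairpin and do not tell its arms apart. The mature arms are in capitals.
Mir191: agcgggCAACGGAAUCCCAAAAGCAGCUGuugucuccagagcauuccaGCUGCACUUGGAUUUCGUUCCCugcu
Mir425: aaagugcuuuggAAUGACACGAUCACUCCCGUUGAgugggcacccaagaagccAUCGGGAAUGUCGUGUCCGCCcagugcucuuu

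The longest run of bases that the hairpins had in common was 5. Folded with RNAfold, both gave a single stem with 28 base pairs. In Mir191, 17 of the pairs joined the 5p arm to the 3p arm, and in Mir425 14 did. The predicted free energy was -35 kcal/mol for the 74 bases of Mir191 and -31.7 kcal/mol for the 85 bases of Mir425. Per base that is -0.473 for Mir191 and -0.373 for Mir425, on either side of the median of -0.406 over 1005 RefSeq hairpins. No stretch of 20 bases of either hairpin occurred in another annotated transcript, apart from the overlapping 4833445I07Rik and, as reverse complement, Gm24083. Copies outside annotated transcripts were not looked for.

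In mm10, the build of the counts, Mir191 lies at chr9:108568319-108568392 and Mir425 at chr9:108568777-108568861, with 384 bases between them. Annotations differ on what the hairpins lie in. RefSeq's Dalrd3 runs from 108567484 to 108572773 and holds both hairpins, the first 835 bases after its start. In GENCODE M21 Dalrd3 starts at 108569886, which is 1024 bases after the end of Mir425, and both hairpins lie in the single exon of the longer transcript of 4833445I07Rik, a long non-coding RNA. In the shorter, spliced transcript of that gene, Mir191 lies in the intron and Mir425 begins 2 bases after the last exon ends. No count for these host transcripts is part of the tables. The row read for Mir191, Gm24083, spans 120 bases from 108568295 to 108568414 on the minus strand. Its reverse complement holds the whole Mir191 hairpin at bases 25 to 98, with 24 bases before it and 22 after it. Plus-strand fragments of those flanks would be counted with Mir191, and how many there were cannot be read from the files.

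**Figure D1:**
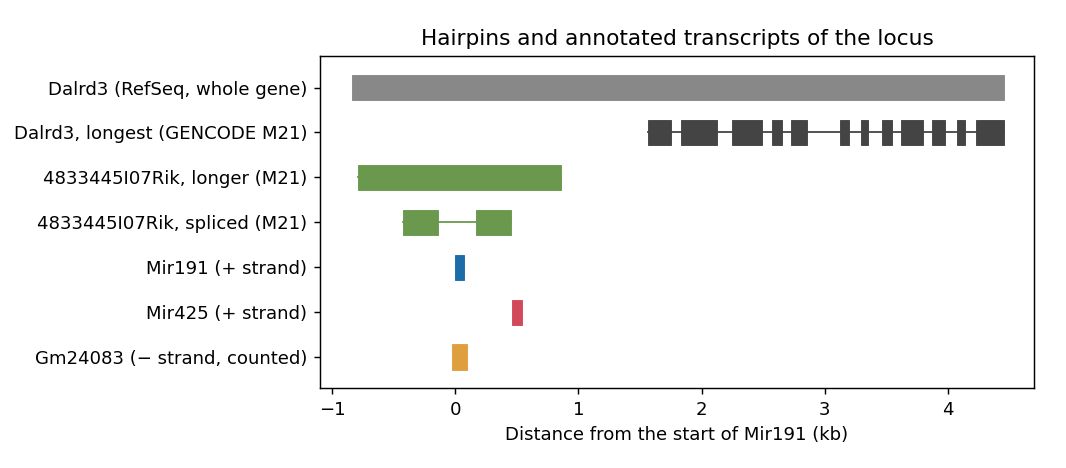
Map of the locus, with distance from the start of Mir191 in kb on the x axis and 1 annotated gene or transcript in each row. Filled boxes are exons, hairpins or, for RefSeq, the whole gene, and thin lines are introns. Both hairpins lie inside RefSeq's Dalrd3 and inside the longer transcript of 4833445I07Rik, but before the first exon of Dalrd3 in GENCODE M21.

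Sequencing gave 11104730 reads for replicate 1 and 11154304 for replicate 2, and the gene-strand columns summed to 4333194 and 4397107. Levels are given per 1000000 of these gene-strand reads (CPM). Reads that matched several places, 37.9% of all reads in each library, stood outside the gene counts. To compare with the labelled tissue, 9 neural miRNA genes were read, and all had reads. The genes listed below for other cell types all had reads too, so the presence of reads does not set the tissue apart. The highest of the 9 were Mir92b at 19620 ± 283.3 CPM (SD, n = 2), Mir137 at 5207 ± 112.5 CPM and Mir153. The Mir124a copies and Mir9-2 were below 10 CPM, but these genes have copies with the same mature miRNA, so their levels are uncertain. The 6 miRNA genes of the Hox clusters, active further back in the body, summed to 188.5 and 176 CPM.

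Among the reads assigned to miRNA genes, Mir191 and Mir425 were both moderately abundant in the forebrain. Their reads together came to 0.597% and 0.595% of the gene-strand total in replicates 1 and 2. That total does not itself include the Mir191 reads, which lie in the opposite-strand column. The Mir191 strand had 13676 reads in replicate 1 and 14469 in replicate 2. These were 3156 CPM (exact 95% interval 3104 to 3209) and 3291 CPM (3237 to 3345), with a mean of 3223 ± 95.1 CPM (SD, n = 2). Replicate 2 was the higher one, and the intervals, which cover counting error only, did not overlap. Mir425 had 12214 reads in replicate 1 and 11690 in replicate 2. These were 2819 CPM (exact 95% interval 2769 to 2869) and 2659 CPM (2611 to 2707), with a mean of 2739 ± 113.2 CPM. Here replicate 1 was the higher one. In both libraries the Mir191 strand had more reads than Mir425, and the lowest value of the first lay above the highest of the second.

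All reads of both hairpins came from the plus strand. Gm24083 had 0 reads on its own strand in both libraries, and Mir425 had 0 on its opposite strand, where a count of 0 allows up to 0.692 and 0.682 CPM in replicates 1 and 2. Against that floor of 3 reads per library, the Mir191 strand was at least 4559-fold and 4823-fold higher than the Gm24083 strand, and Mir425 at least 4071-fold and 3897-fold higher than the strand opposite to it. The predicted free energy of Gm24083 was -58.6 kcal/mol over its 120 bases. Gm24083 held the fourth most opposite-strand reads of any row, 28145 over both libraries. Above it stood Gm24321, opposite to Mir409, with 89840, Gm25927, opposite to Mirlet7e, with 37691, and Gm25252, opposite to Mir376a, with 33114. Gm25750, opposite to Mir380, had 17191 and Gm25301, opposite to Mir378a, had 16159. Each of these 6 rows had 0 reads on its own strand. The Mir191 strand held 11.4% and 11.5% of all opposite-strand reads, so a reading of the gene-strand column alone would list the locus as Mir425 only.

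Among 2005 features, which were all gene-strand rows and the opposite-strand reads of 32 rows that lie across from a miRNA gene without a row, the Mir191 strand took place 65 and Mir425 place 71 by mean CPM. In single libraries the places were 66 and 65 for the Mir191 strand, and 70 and 72 for Mir425. Reads that matched several places were not assigned, so genes with copies of the same mature miRNA may stand too low. With those reads assigned, both members could take a lower place, which was not tested. Of the 10 features nearest to the Mir191 strand, 5 had library values that overlapped its own. These were Mir214, Mir139, Mir484, Mir381 and Mir153. Above it without overlap stood Mir361 at 3431 ± 108.8 CPM, Mir16-1 at 3674 ± 289.1 CPM and Mir379 at 3703 ± 140.1 CPM. For Mir425, 6 of the 10 nearest overlapped, namely Mir153, Mirlet7d at 2775 ± 52.1 CPM, Mir106a at 2742 ± 111.7 CPM, Mir351 at 2656 ± 121.2 CPM, Mir182 and Mir22. Mir125b-1 at 2298 ± 33.2 CPM and Mir107 at 2217 ± 49.2 CPM stood below it without overlap. The order of Mir425 and its next neighbours was thus within the spread between the libraries.

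**Figure D2:**
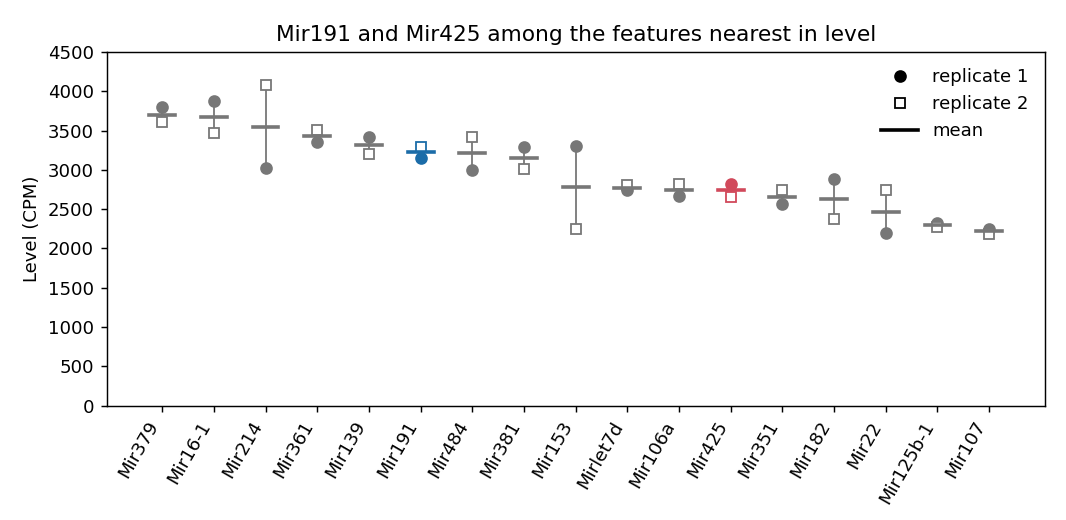
Level in CPM on the y axis for Mir191, Mir425 and the features nearest to each in mean level, in falling order. Circles are replicate 1, squares replicate 2 and bars their mean. Mir191 (blue) lies at 3156 and 3291 CPM and Mir425 (red) at 2819 and 2659 CPM, and the values of Mir153 and Mir214 spread more widely.

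A list of miRNAs that are widely expressed or have served as references in assays gave a scale for these levels. Of 18 such genes, 5 stood above the Mir191 strand and 6 above Mir425. The highest were Mir93 at 22647 ± 992.3 CPM, Mir26b at 20975 ± 1526 CPM, Mir423 at 9259 ± 69.8 CPM and Mir16-1, and the lowest was Mir103-1 at 7.21 ± 1.71 CPM. The Mir16, Mir103, Mir26a and Mir24 genes have copies with the same mature miRNA. Reads that matched several places were not assigned, so the levels of these genes are uncertain. The median of the 18 genes was 726 CPM, and it and the counts above each member share that uncertainty.

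The locus on chromosome 9 had no other miRNA gene with reads nearby. Within 1 Mb of the pair, 5 further miRNA genes are annotated. Mir7088, Gm26298, Gm23156 and Mir711 had 0 reads in both libraries and on both strands, and Gm47303 had no row. The nearest, Gm26298, lies 84.7 kb away.

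Between the pools, the levels moved by small amounts and in opposite directions. The Mir191 strand was higher in replicate 2 by 0.06 on the log2(CPM + 1) scale, or 4.26%, and Mir425 was lower by 0.08 (log2 difference -0.08). A two-sided Fisher's exact test on reads, with Benjamini-Hochberg adjustment over 536 features with at least 10 reads, gave an adjusted p of 0.00191 for the Mir191 strand and 3.05e-05 for Mir425. This test compares the 2 libraries with counting error only, and 32.6% of all features passed it, 20.1% as higher and 12.5% as lower in replicate 2, including 81.5% of the 108 features of at least 1000 CPM. A call needed both an adjusted p under 0.05 and a difference of 2-fold, which 2.24% of features met, and neither member differed by 2-fold. For the Mir191 strand the adjusted p of the same exact test was 0.529 with TMM scaling, 0.0873 with DESeq2 size factors and 0.102 with the most abundant gene left out of the library size. For Mir425 it stayed under 0.05 with each of these.

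With gene-strand library sizes, both differences lay below the median of the more abundant features. Of 238 features of at least 100 CPM, 70 had a smaller absolute log2 difference than the Mir191 strand and 92 a smaller one than Mir425, and the median was 0.11. Markers of other cell types moved more, and so did the neural miRNA Mir153. It stood at 3304 and 2251 CPM in replicates 1 and 2, a log2 difference of -0.55. Of the 9 neural genes, Mir153 was the 1 lower in replicate 2 by the same test. Mir137 and Mir92b were higher, by 0.04 and 0.03. Mir126a of endothelial cells stood at 16564 and 21180 CPM in replicates 1 and 2, a log2 difference of 0.35. Of 5 mesenchymal genes, 4 were higher in replicate 2 by the same test, and their summed level was 8384 and 10714 CPM. Of 5 leukocyte genes, 2 were higher, with sums of 695.1 and 833.5 CPM. The erythroid miRNA Mir451a was lower in replicate 2, at 293.1 and 202.9 CPM, and of the other 2 erythroid genes Mir144 was higher, at 24.7 and 35.5 CPM, and Mir486 stood at 10.8 ± 2.48 CPM. None of the markers in these lists was at 0. The part of such cells in the levels of Mir191 and Mir425 was not tested, and in bulk tissue fewer cells and less RNA per cell cannot be told apart. The summed level of the pair was 5975 CPM in replicate 1 and 5949 CPM in replicate 2.

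**Figure D3:**
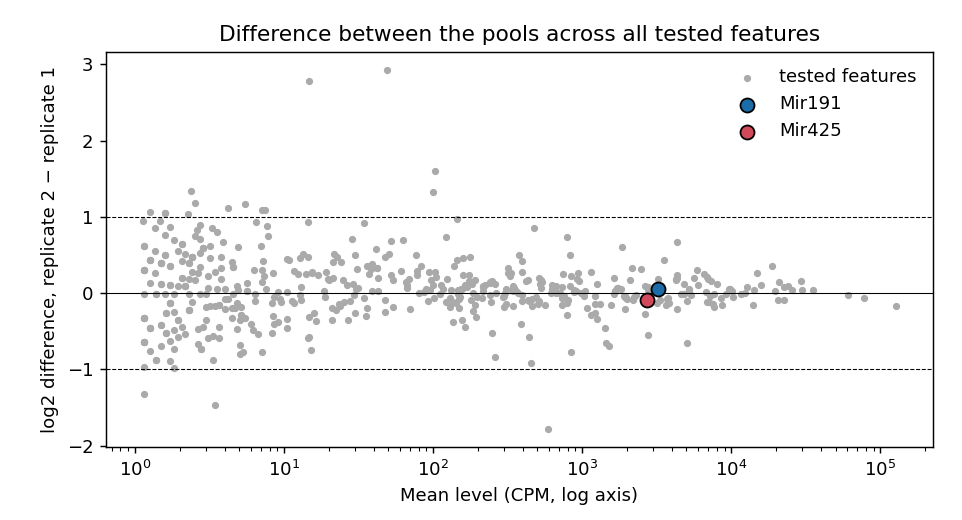
Each point is 1 of 536 tested features, with its mean level in CPM on a log x axis and its log2 difference between the pools on the y axis. Dashed lines mark a 2-fold difference. Mir191 (blue, 0.06) and Mir425 (red, -0.08) lie on either side of 0 and far inside the dashed lines.

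The ratio within the pair needs no scaling between libraries. Mir191 made up 52.8% of the pair's reads in replicate 1 (exact 95% interval 52.2% to 53.4%) and 55.3% in replicate 2 (54.7% to 55.9%). The ratio of Mir191 reads to Mir425 reads was 1.12 in replicate 1 and 1.24 in replicate 2, with a mean log2 ratio of 0.24 ± 0.10 (SD, n = 2). Both libraries showed more reads for Mir191. These reads were not divided by length, since each read was taken as 1 short RNA. How evenly the 2 miRNAs were turned into reads was not measured, so the ratio is one of reads and not of molecules. Per base of the counted intervals, which are 120 bases for Gm24083 and 85 for Mir425, the order turned round, with 26.9 CPM per base for the Mir191 strand and 32.2 CPM per base for Mir425. Per base of the hairpins, Mir191 was again the higher one, at 43.6 CPM per base.

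The split of the pair changed by a log2 value of 0.14 between the libraries. Fisher's exact test on the 2 genes in the 2 libraries, adjusted over 123 neighbouring pairs on 1 strand and at most 10 kb apart, gave an adjusted p of 8.17e-08, and 36.6% of the pairs passed. Of 73 pairs in which both genes had at least 1000 reads over both libraries, 40 passed and 41 had a smaller change than this pair, with a median of 0.13. The change exceeded counting error and lay near the middle of what such pairs showed between these libraries.

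In counted reads the hairpins lay closer together than most neighbours. Of the 123 pairs, 9 had a smaller absolute log2 ratio, and the median was 2.63. Of the 73 pairs with at least 1000 reads for each gene, 7 had a smaller one, and the median was 2.15. This is a description, since many pairs come from the same few clusters. Some pairs also hold a gene with copies of the same mature miRNA elsewhere. Examples are Mir99a to Mirlet7c-1 and Mir20a to Mir19b-1, with log2 ratios of 9.88 and 9.37 in replicate 1. Reads that matched several places were not assigned, so such ratios and the median over all pairs are uncertain. For scale, 4 small clusters inside a protein-coding host were read, in each of which the highest gene exceeded the lowest by more than within this pair. In Mcm7 the ratio was 20.9, from Mir93 to Mir25 at 1084 ± 105 CPM, but this spans 3 genes and not 2. The third, Mir106b at 15720 ± 768.8 CPM, lay nearer to Mir93. The log2 ratio of Mir93 to Mir106b was 0.62 and 0.43 in replicates 1 and 2. In Smc4 it was 2.81, from Mir15b at 2206 ± 96.2 CPM to Mir16-2 at 785.7 ± 52.4 CPM. In Aopep, Mir23b at 7621 ± 65.9 CPM stood beside Mir27b at 806.5 ± 35.7 CPM and Mir24-1 at 19.8 ± 1.90 CPM, and in Nfyc, Mir30e at 29161 ± 2341 CPM stood beside Mir30c-1 at 77.5 ± 9.08 CPM. Mir16-2, Mir24-1 and Mir30c-1 have copies elsewhere with the same mature miRNA, so these ratios are uncertain, and no test of the difference between clusters was run.

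**Figure D4:**
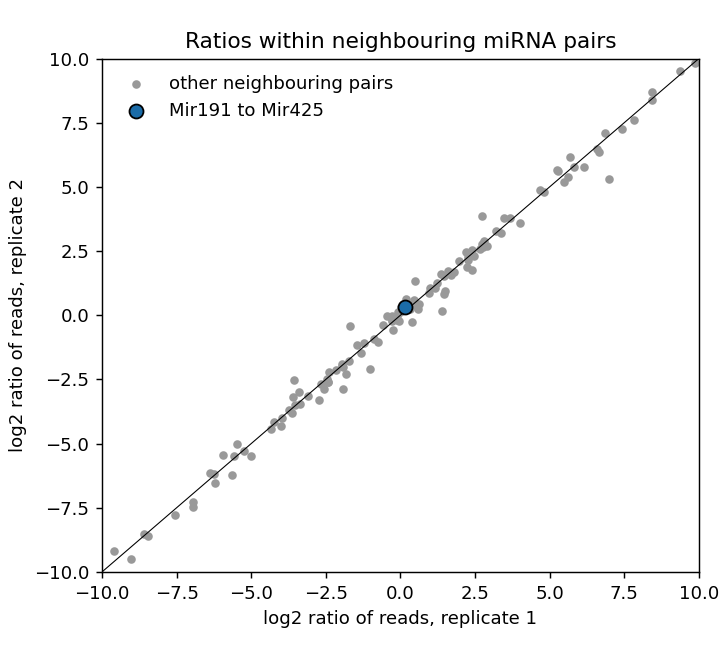
Each point is 1 of 123 pairs of neighbouring miRNA genes, with the log2 ratio of the pair's reads in replicate 1 on the x axis and in replicate 2 on the y axis. The line marks equal ratios. Mir191 to Mir425 (blue) lies at 0.16 and 0.31, close to the line and to 0.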

How the data were processed

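The deposited tables hold raw read counts for each miRNA gene on both strands together, the gene strand and the opposite strand. The columns were told apart by their values: in all 1973 rows one column was the sum of the others, and the one holding 97.3% and 97.2% of the reads was used as the gene strand. Per the file headers deposited beside them, the authors aligned to mm10 and used genome annotation M4. Aligner, counter and trimming: not given in the sources used here. The rows that name no gene held 17.5% and 16.8% unmapped reads, 37.9% reads matching several places, 5.49% and 5.93% reads outside any gene on its strand, and 0 ambiguous reads. In the main setting neither library sizes nor tests used them.

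Names and positions came from GENCODE M21, on the same build, in which 1894 of 1973 identifiers matched. Sequences came from RefSeq (GRCm38.p6), in which both members matched, and folds from ViennaRNA 2.7.2. CPM used gene-strand assigned reads, 1 read being 0.231 and 0.227 CPM. Log ratios used log2(CPM + 1), and ratios within pairs used reads + 0.5. Opposite-strand reads were credited to the miRNA gene on that strand where it had no row. With 1 group of 2 libraries no model could be fitted, so Fisher's exact test (SciPy 1.17.1, Python 3.11.15) compared the libraries. Such p-values measure counting error between 2 pools and no condition. A call asked for an adjusted p under 0.05 and 2-fold. The steps were tested on simulated data.

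The genes named were the members, the 5 features next above and below each in level, miRNA genes within 1 Mb, up to 4 genes of each list, the 6 rows with the most opposite-strand reads and genes that share a seed. The Mir103, Mir26a, Mir24 and Mir124a genes and Mir9-2 were outside this rule and chosen once their values were known. So were Mir99a, Mirlet7c-1, Mir20a and Mir19b-1. The lists were widely expressed miRNAs, clusters in Mcm7, Smc4, Aopep and Nfyc, and neural, Hox, erythroid, leukocyte, endothelial and mesenchymal markers. Members and lists were chosen with earlier results of these data known. Alternatives were TMM (edgeR 4.0.16 in R 4.3.3), DESeq2 1.42.0 size factors, other library sizes, minimum reads, pseudocounts, pair distances, length terms and leaving out each replicate.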

Additional observations from a re-analysis of the deposited data

How the results depend on the processing

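Of 42 alternative values, 34 kept their direction and, for tests between pools, their side of the call (adjusted p and 2-fold together) or, where untested, their size within 1 SD. Much of this count was fixed in advance, so it does not measure robustness. With 2 libraries, either one alone always lies within 1 SD of their mean. Differences so far below 2-fold could hardly change side of the call. The adjusted p of the Mir191 strand alone was 0.00191 by Fisher's exact test. It rose above 0.05 in 3 of the 9 settings run for it, to 0.529 with TMM, 0.0873 with DESeq2 size factors and 0.102 without Mir99a. All 3 changed the scaling, while the settings for pseudocount and minimum reads left the scaling as it was. A library size without Mir99a, the most abundant gene, gave 3689 CPM for the Mir191 strand and 3135 CPM for Mir425. Adding reads that match several places to the full gene-strand library size gave 1639 and 1392 CPM. Both shifts are what the changed totals require. With Mir191 as the single opposite-strand feature, the places were 62 and 68. Reads per base of hairpin gave a log2 ratio of Mir191 to Mir425 of 0.44. Reads per base of counted interval, a setting added after the data were seen, gave -0.26, the 1 value that turned round. Without replicate 1 or replicate 2 the levels were 3156 to 3291 CPM for the Mir191 strand and 2659 to 2819 CPM for Mir425, and the log2 ratio was 0.16 to 0.31. The difference between pools ranged from 0.02 to 0.07 (log2) for the Mir191 strand and from -0.13 to -0.08 for Mir425 over 9 settings each, with neither reaching 2-fold. The settings for pairs change only which other pairs are tested: 44.4% of 99 pairs with at least 100 reads and 38.1% of 84 pairs at most 1 kb apart passed. No paired analysis was possible because there is 1 group. With 11690 reads or more for each member in each library, counting error was small, and the 2 pools limit what can be said of the spread.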
